A study of Sus scrofa with 24 samples.

Results

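The myosin heavy chains examined here are 8 gene symbols, MYH1, MYH2, MYH4, MYH7, MYH7B, MYH3, MYH8 and MYH14, taken by name from a transcript table of pig muscle that holds 12017 genes when its transcripts are summed. The 8 symbols cover 39 of the 22154 transcripts in the table, and every one of the 8 passed the filter on low values used below. The tissue was longissimus dorsi, a back muscle, of 24 Duroc x Luchuan cross pigs, in which intramuscular fat (IMF) was labelled high in 12 animals and low in 12. Both groups were fed alike, came from an F1 population of 265 animals by 8 Duroc boars and 112 Luchuan sows, and were slaughtered at 210 days of age, give or take 6. Samples were taken 25 minutes postmortem, and their polyA RNA was read in pairs of 150 bases, with 1 library per animal, so all spreads and p-values below are between animals. Animals are numbered 1 to 12 within each group.

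Myosin heavy chain is the motor of the thick filament, and the isoform in a fibre sets how fast it contracts. In adult skeletal muscle MYH7 encodes the slow type I chain, MYH2 the fast IIa, MYH1 the fast IIx and MYH4 the fast IIb chain, while MYH3 and MYH8 are the embryonic and neonatal chains and MYH7B is a slow-type relative of MYH7. The fast and developmental genes lie side by side in 1 cluster, MYH7 lies next to the cardiac gene MYH6 in mammals, and MYH14 encodes a non-muscle myosin II that is also made in muscle. The pig back muscle is known as a mostly fast, glycolytic muscle.

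None of the 8 genes passed the test between high and low IMF, and none had groups that did not overlap, as was the case for 0% of all genes tested. The test was limma on log2(FPKM + 1), where FPKM is the deposited abundance scaled to transcript length and library size, and a gene was called at an adjusted p under 0.05 over the 11757 genes whose mean reached 0.5 FPKM. It called 0 of the 8 members, against 0.0510% of all genes tested (0.00851% when only genes lower with high IMF are counted). At an unadjusted p under 0.05 it took 1 of the 8, MYH14, against 7.68% of all genes. The fold changes of 4 members were positive and of 4 negative, and 26.6% of all genes were negative. After scaling by trimmed means (TMM), which moves the median of all genes from 0.077 to near 0 on the log2 scale, 7 of the 8 were negative beside 50.1% of all genes, so the signs of the small differences below depend on the scale. In bulk muscle, fewer fibres of a type and less RNA per fibre cannot be told apart.

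What each symbol counts has to be stated before its values. On chromosome 12 the genes of the fast cluster lie on the minus strand, and the table holds 30 assembled transcripts on that strand and 20 on the other. All 4 transcripts named MYH1 are on the opposite strand, as are 6 of the 9 named MYH2 and 7 of the 8 named MYH4. These 17 are 206 to 1306 bases long, and each one overlaps the ranges of several RefSeq genes (assembly Sscrofa11.1, the build of the table). The labels name a library kit without stating that it kept strand, so reads from a gene and from a transcript opposite to it cannot be told apart here.

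**Figure D1:**
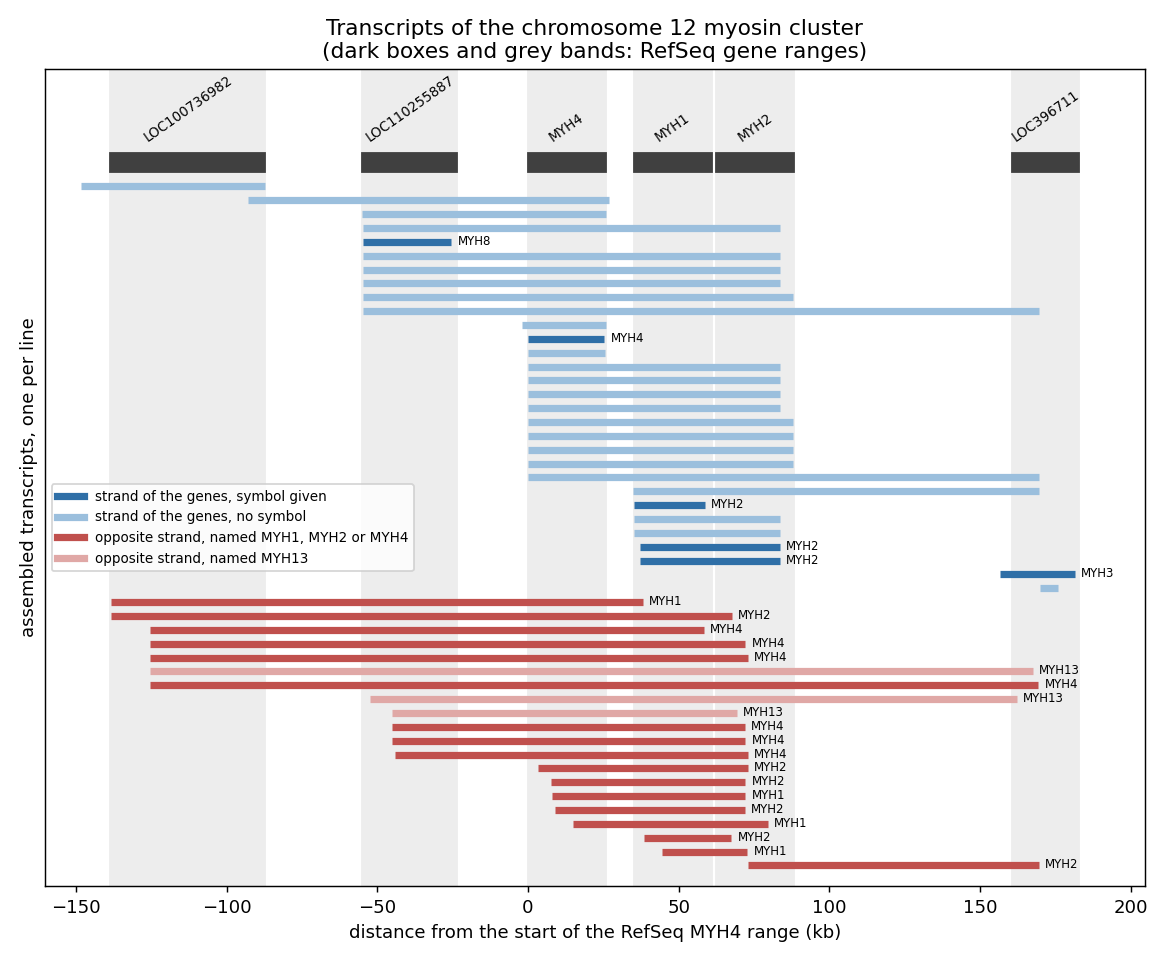
Each line is 1 of the 30 plus 20 assembled transcripts of the chromosome 12 myosin cluster, drawn from its start to its end as distance in kb from the start of the RefSeq MYH4 range, with RefSeq ranges as dark boxes and grey bands. Transcripts on the strand of the genes are blue and mostly carry no symbol (24 of 30, pale blue), while every transcript named MYH1 is red and lies on the opposite strand.

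Most of the RNA assigned to the cluster carried no gene symbol. Of the 30 transcripts on the strand of the genes 24 had none, and 22 ran over more than 1 RefSeq gene, up to 5. Multiplied by length, so that the values follow the number of fragments, the transcripts over several genes held 94.6% of the cluster's coverage on that strand (lowest animal 79.8%, highest 99.3%). Those with a symbol held 2.15% (0.526% to 5.36%), and the transcripts on the opposite strand came to 2.24% of the same sum (0.544% to 6.91%). The assembly of highest mean, MSTRG.3050.50 at 280.4 FPKM, joins MYH4, MYH1 and MYH2. The values named MYH1, MYH2 and MYH4 therefore describe a small part of the RNA at these 3 genes.

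Only a few transcripts on the strand of the genes overlapped 1 adult fast gene alone. For MYH4 (RefSeq range chr12:55190545-55216294) the reference transcript ENSSSCT00000061472 was under 2 FPKM in 23 of 24 animals, listed at 0 in 5, and at 91.4 FPKM in low IMF animal 8. The transcript ENSSSCT00000019596, named MYH2 in the table, lies at 55225686 to 55249342 on chromosome 12, which is inside the RefSeq range of MYH1 (chr12:55225581-55251495) and outside that of MYH2 (chr12:55252974-55278820). The other 2 reference transcripts named MYH2 run over both ranges, and no transcript on the strand of the genes overlaps MYH2 alone. On average 86.5% of the FPKM named MYH2 (58.6% to 97.5%) and 98.3% of that named MYH4 (67.5% to 100%) was assigned to opposite-strand transcripts. The strand from which those reads came is not known here.

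By summed FPKM, MYH7 was the highest member and MYH14 the lowest. MYH7 averaged 531 FPKM over the 24 animals, which placed it at rank 85 of 12017 genes. MYH2 averaged 175 FPKM (rank 238), MYH4 126 (rank 300) and MYH1 91.2 (rank 400). MYH8 averaged 16.7, MYH7B 7.65, MYH3 3.74 and MYH14 2.80 FPKM. The order was firm at the top, where MYH7 exceeded MYH2 in 24 of 24 animals, and loose between fast neighbours, where MYH2 exceeded MYH4 in 19 and MYH4 exceeded MYH1 in 14. Further down MYH1 exceeded MYH8 in 23 animals, MYH8 exceeded MYH7B in 18, MYH7B exceeded MYH3 in 22 and MYH3 exceeded MYH14 in 19.

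**Figure D2:**
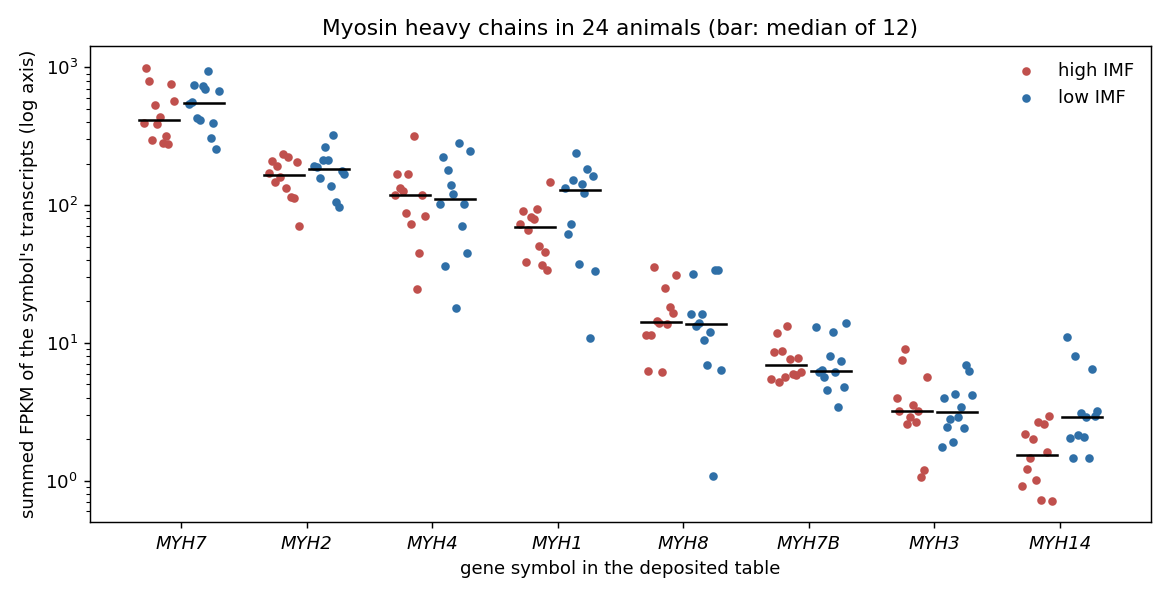
Summed FPKM of each gene symbol (log axis) in 12 high IMF animals (red) and 12 low IMF animals (blue), 1 point per animal with the group median as a bar. The groups overlap for all 8 genes; MYH14 shows the clearest shift, with medians of 1.54 and 2.92 FPKM.

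Slow chains come first. MYH7 ranged in the high IMF animals from 280 (animal 10) through a median of 415 to 995 FPKM (animal 2), and in the low IMF animals from 257 (animal 11) through 552 to 946 (animal 8). The groups overlapped over nearly their whole range, and each held animals at either end. Group means were 505 ± 234 and 557 ± 205 FPKM (SD, n = 12 each), a log2 difference, high minus low, of -0.18 (SE 0.23, 95% interval -0.65 to 0.30, limma adjusted p = 0.870).

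MYH7B ranged from 5.18 through 6.92 to 13.2 FPKM with high IMF and from 3.43 through 6.26 to 13.99 with low IMF. Its range with low IMF enclosed its range with high IMF. The means were 7.66 ± 2.59 and 7.64 ± 3.48 FPKM (SD, n = 12 each) and the log2 difference was 0.051 (SE 0.19, limma adjusted p = 0.968).

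MYH7 was assembled as 8 transcripts over 2 neighbouring RefSeq genes of chromosome 7, MYH7 (chr7:75650841-75672908) and LOC100736765 (chr7:75677666-75704486). Of the 8, 2 overlap MYH7 alone, 5 run over both and 1, ENSSSCT00000035069, overlaps LOC100736765 alone. Those over both ranges held on average 62.9% of the coverage (14.4% to 97.5%), those over MYH7 alone 33.2% (0% to 77.1%) and the one over LOC100736765 alone 3.92% (0.0378% to 24.98%). So the value named MYH7 is a sum over both genes, and only part of it is assigned to MYH7 alone.

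The transcript to which most of the MYH7 value was assigned changed from animal to animal. ENSSSCT00000002271, the reference transcript of the full MYH7 range, was under 5 FPKM in 14 animals, the highest of these at 4.44, and over 100 in the other 10, from 149 to 684. No animal lay between. These 10 animals were 5 of each group. MSTRG.13727.4, which runs over both ranges, was the largest MYH7 transcript in 12 animals, ENSSSCT00000002271 in 9, MSTRG.13727.16 in 2 and ENSSSCT00000039377 in 1. MSTRG.13727.16 spans almost the same range as ENSSSCT00000002271, and each has 40 exons. In low IMF animal 3 it held 521 FPKM, where ENSSSCT00000002271 was at 0. Whether the animals differ in isoform or in how reads were assigned to such similar transcripts was not tested. The sum over the 8 varied only 3.86-fold between the extreme animals.

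**Figure D3:**
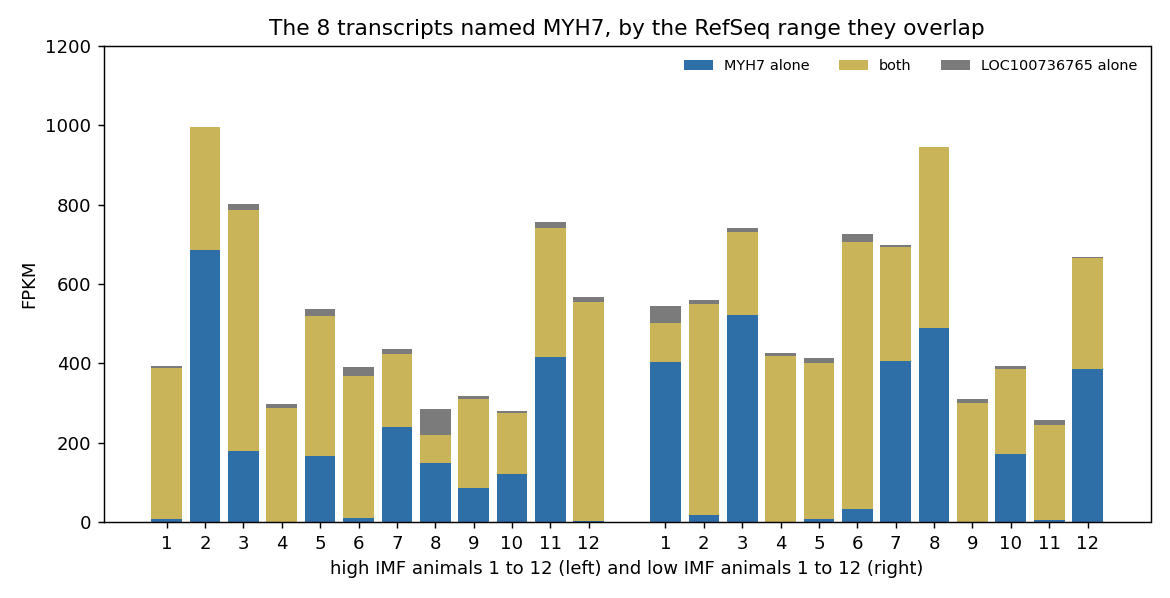
FPKM of the 8 transcripts named MYH7, stacked for each animal by the RefSeq range they overlap: MYH7 alone (blue), MYH7 and LOC100736765 (ochre) or LOC100736765 alone (grey). Animals with almost no blue stand beside animals with more than 400 FPKM of it in both groups, while the heights of the whole bars stay between 257 and 995.

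The adult fast chains follow. MYH2 ranged from 70.2 (high IMF animal 12) through a median of 166 to 234 FPKM with high IMF and from 96.2 through 182 to 323 with low IMF. The low IMF group reached higher, but 5 of 12 high IMF animals were above the low IMF median. Its means were 165 ± 50.4 and 186 ± 63.5 FPKM (SD, n = 12 each), and the log2 difference was -0.17 (SE 0.19, 95% interval -0.57 to 0.23, limma adjusted p = 0.843).

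All of the FPKM named MYH1 was assigned to opposite-strand transcripts. MYH1 ranged from 33.8 through 69.3 to 147 FPKM with high IMF. With low IMF it ranged from 10.9 (animal 10) through 128 to 240 (animal 5). Low IMF animals held both the lowest and the highest values, 7 of 12 were over 120 FPKM, and 1 of 12 high IMF animals was. At the lower end, 3 low IMF and 3 high IMF animals were below 40 FPKM. The means were 69.8 ± 32.4 and 113 ± 69.3 FPKM (SD, n = 12 each), a log2 difference of -0.43 (SE 0.38, 95% interval -1.22 to 0.36, limma adjusted p = 0.805). Without 2 libraries that stood apart, described below, the difference was -0.74 (limma adjusted p = 0.363), and with 1 animal per 9 identifier digits it was -0.28 (limma adjusted p = 0.931). Some animals of the same group share their first 9 identifier digits, and this last setting kept 21 animals. Whether animals with the same digits are related is not known here. The single transcript on the gene's own strand that overlaps the MYH1 range alone, named MYH2 in the table, went the other way, with a log2 difference of 0.39 (SE 0.39, limma adjusted p = 0.827).

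MYH4 ranged from 24.7 through 119 to 315 FPKM (animal 8) with high IMF and from 17.98 (animal 7) through 111 to 282 with low IMF. Both groups spread widely and over nearly the same range. The means were 122 ± 75.3 and 130 ± 86.1 FPKM (SD, n = 12 each), with a log2 difference of 0.025 (SE 0.41, limma adjusted p = 0.991), whose 95% interval from -0.82 to 0.87 leaves room for large changes in either direction.

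Read over the whole cluster, symbol or not, the result was of the same kind. The coverage of all transcripts on the strand of the genes differed by 0.094 on the log2 scale (SE 0.32, limma adjusted p = 0.967), and that of the opposite-strand transcripts by -0.22 (SE 0.19, limma adjusted p = 0.799). Transcripts that overlap MYH4 alone, mainly unnamed, ranged from 6.20 to 699 FPKM over the 24 animals and differed by 0.37 (SE 0.54, limma adjusted p = 0.893).

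The share of each adult chain in the sum of MYH1, MYH2, MYH4 and MYH7 was compared next, since a share does not depend on the scale of a library. MYH7 took 57.4 ± 11.9% with high IMF and 56.0 ± 11.6% with low IMF (SD, n = 12 each; two-sided permutation p = 0.755). MYH2 took 20.04 ± 6.05% and 19.0 ± 4.14% (permutation p = 0.613), and MYH4 13.96 ± 8.08% and 12.8 ± 6.61% (permutation p = 0.719). MYH1 took 8.58 ± 3.86% and 12.3 ± 8.996% (permutation p = 0.199), the largest of the 4 differences at -3.74 percentage points. No share differed by more than the spread between animals. MYH7 had the largest share in 23 of 24 animals and MYH4 in 1, high IMF animal 8, with 36.1%. The size of a share depended on transcript length. With FPKM multiplied by length MYH7 took 88.1% with high and 86.8% with low IMF (permutation p = 0.576). MYH1 then took 1.35% and 2.24% (permutation p = 0.161).

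That order of shares belongs to the symbols and not to the loci. When all transcripts of the MYH7 locus were set against all transcripts on the strand of the chromosome 12 cluster, with FPKM multiplied by length, the MYH7 locus held 16.7 ± 9.30% with high IMF and 19.8 ± 9.14% with low IMF (SD, n = 12 each; permutation p = 0.425). It ranged from 4.51% to 42.2% over the animals, whereas MYH7 held on average 56.7% of the sum over the 4 symbols, taken without the factor of length. This measure was added after the values of the table had been seen.

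The developmental chains were low, and neither passed the test. MYH3, the embryonic chain, ranged from 1.06 through 3.23 to 8.99 FPKM with high IMF and from 1.77 through 3.16 to 6.93 with low IMF, a log2 difference of 0.014 (SE 0.23, 95% interval -0.46 to 0.48, limma adjusted p = 0.991). MYH8, the neonatal chain, ranged from 6.19 through 14.3 to 35.4 FPKM with high IMF and from 1.09 (animal 9) through 13.6 to 33.9 with low IMF, a log2 difference of 0.22 (SE 0.37, 95% interval -0.54 to 0.97, limma adjusted p = 0.913). Each symbol stands for 1 reference transcript: that of MYH3 overlaps the RefSeq gene LOC396711 (chr12:55351152-55373236) and that of MYH8 lies in LOC110255887 (chr12:55135651-55166983), so the names are those of the table. Of 17 further genes of regenerating or immature fibres that were tested, 0 were called by limma, against 0.0510% of all genes. An unadjusted p under 0.05 was found for 2 of the 17, 1 higher and 1 lower, against 7.68% of all genes in either direction and 0.893% lower. The 3 most abundant of the 17 were DES (desmin), ANKRD1 (a stress-induced ankyrin repeat protein) and VIM (vimentin), with log2 differences of -0.042, 0.0040 and 0.25.

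MYH14, the non-muscle chain, had the lowest unadjusted p of the 8. It ranged from 0.719 through 1.54 to 2.96 FPKM with high IMF and from 1.46 through 2.92 to 11.14 with low IMF. The groups overlapped, with 5 high IMF animals below every low IMF animal and 1 of 12 above the low IMF median. The means were 1.68 ± 0.80 and 3.92 ± 3.03 FPKM (SD, n = 12 each), and the log2 difference was -0.74 (SE 0.23, 95% interval -1.22 to -0.26, unadjusted p = 0.00412, limma adjusted p = 0.391). Lower in high IMF at an unadjusted p under 0.05 were 0.893% of all genes. In the authors' deposited table this transcript has a ratio of 1.694, low over high, with a p-value of 0.01008 and a q-value of 0.821.

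A second transcript lies at the same place. The symbol MYH14 is given to 1 transcript, ENSSSCT00000027619, while MSTRG.11997.3, an isoform of almost the same length added by the assembly, carries no symbol. Both lie in the RefSeq range of MYH14 (chr6:55097851-55200754). The unnamed one was the larger in 22 of 24 animals, with 4.01 through 11.2 to 17.0 FPKM with high IMF and 0 through 10.6 to 16.8 with low IMF. The transcript with the symbol held 22.4% of the sum on average, 13.3 ± 3.93% with high IMF and 31.5 ± 30.03% with low IMF (SD, n = 12 each).

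Of the 3 low IMF animals above 5 FPKM in the named transcript, 2 had little or none of the unnamed one. Low IMF animal 1 had 11.14 FPKM of the named and 1.48 of the unnamed transcript, and animal 4 had 8.05 and 0. In the 22 other animals the unnamed transcript lay between 4.01 and 17.0 FPKM. Animal 10, the third, had 6.46 and 15.4. The sum of both transcripts was 12.7 ± 4.55 FPKM with high IMF and 13.9 ± 4.29 with low IMF (SD, n = 12 each), a log2 difference of -0.16 (SE 0.19, limma adjusted p = 0.855), and the unnamed transcript alone differed by 0.36 (SE 0.38, limma adjusted p = 0.913). For the sum and for the unnamed transcript a difference between the groups was not detectable.

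MYH14 is also made in epithelia, so the markers of that tissue stand beside it. Of 8 epithelial markers 2 are listed, KRT14 and KRT8, and both were negative, at -0.68 (limma adjusted p = 0.118) and -0.58 (limma adjusted p = 0.233). Their summed level ran from 0 through 0.648 to 2.28 FPKM with high IMF and from 1.26 through 2.20 to 7.42 with low IMF. EPCAM and CDH1, which define epithelium, are not among those listed. The part of such cells in the MYH14 values was not tested.

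**Figure D4:**
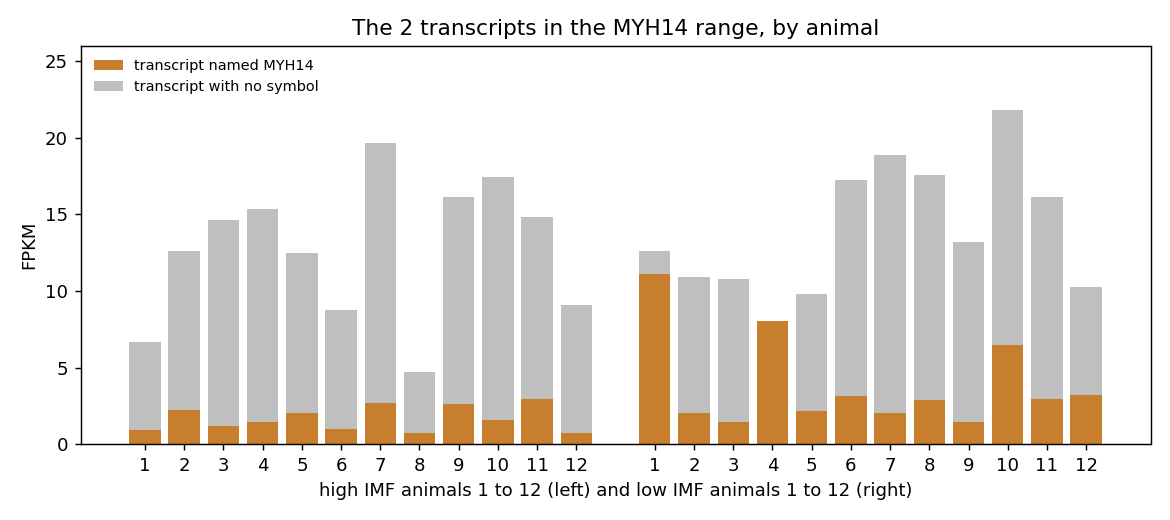
FPKM of the transcript named MYH14 (orange) and of the unnamed transcript of the same range (grey), stacked for each animal. The tall orange bars of low IMF animals 1 and 4 come with little or no grey, and the heights of the whole bars overlap between the groups.

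Transcript by transcript the outcome did not change. In the fit of 21405 transcripts, 0 of the 39 member transcripts were called by limma, against 0.0187% of all transcripts, and the lowest limma adjusted p was 0.533, for the transcript of MYH14. At an unadjusted p under 0.05 there was 1 of 39, against 6.34%. By the authors' deposited values, 3 of the 39, or 7.69%, had a p-value under 0.05, against 6.39% of all transcripts: the transcript of MYH14, MSTRG.13727.5 of MYH7 (ratio 0.459, p-value 0.04923) and MSTRG.6330.2 of MYH7B (ratio 1.175, p-value 0.0463). The lowest q-value of the 39 in that table was 0.821 over all its transcripts, and 0.344 in the smallest of its 3 q-value columns.

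Across the animals the slow chains varied together. The log2 levels of MYH7 and MYH7B correlated over 24 animals with Pearson's r = 0.512 (permutation p = 0.0106, Benjamini-Hochberg adjusted 0.0478 over 9 pairs of members) and Spearman's rho = 0.606 (permutation p = 0.00211, adjusted 0.00949). Without the 2 animals farthest from the median of MYH7, r was 0.594. Within the groups r was 0.532 (high IMF) and 0.547 (low IMF), positive in both but not tested in either alone. MYH2 and MYH4 correlated with r = 0.569 (permutation p = 0.00368, adjusted 0.0331) and rho = 0.707 (permutation p = 0.00018, adjusted 0.00162), and r was 0.589 without the 2 farthest animals. These last levels come mostly from opposite-strand transcripts with overlapping spans in the cluster. The other 7 pairs, with r from -0.253 to 0.251, did not pass.

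The slow light chains and troponins followed MYH7. Among 8004 symbols of at least 1 FPKM, the 3 most like MYH7 by rank correlation over 24 animals were TNNT1 (slow troponin T, rho = 0.709), MYL2 (the slow regulatory light chain, rho = 0.665) and Metazoa_SRP (a signal recognition particle RNA, rho = 0.597). For MYH7B they were again TNNT1 (rho = 0.844), then PDLIM1 (an actin-binding LIM protein, rho = 0.820) and MRPS6 (a mitochondrial ribosomal protein, rho = 0.741). The symbols at the other end were PELI1, an E3 ubiquitin ligase, for MYH7 (rho = -0.773) and GSDMD, a pore-forming protein, for MYH7B (rho = -0.630). TNNT1 itself spanned 293 to 1873 FPKM over the animals. All 13 slow fibre partners tested had a positive rho with MYH7 (0.066 to 0.709, median 0.349). Over all symbols the median was -0.0999, and 2681 of 8012 were positive. Of 12 fast fibre partners 8 were positive, with a median of 0.083. These rank correlations of levels describe animals that share their libraries' scale and carry no p. With the share of the MYH7 locus in place of MYH7, 12 of 13 slow partners were positive (median 0.175, TNNT1 at 0.232, MYL2 at 0.233). Of the 12 fast partners 6 were then positive (median 0.044), and of all 8012 symbols 2302 were (median -0.1).

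**Figure D5:**
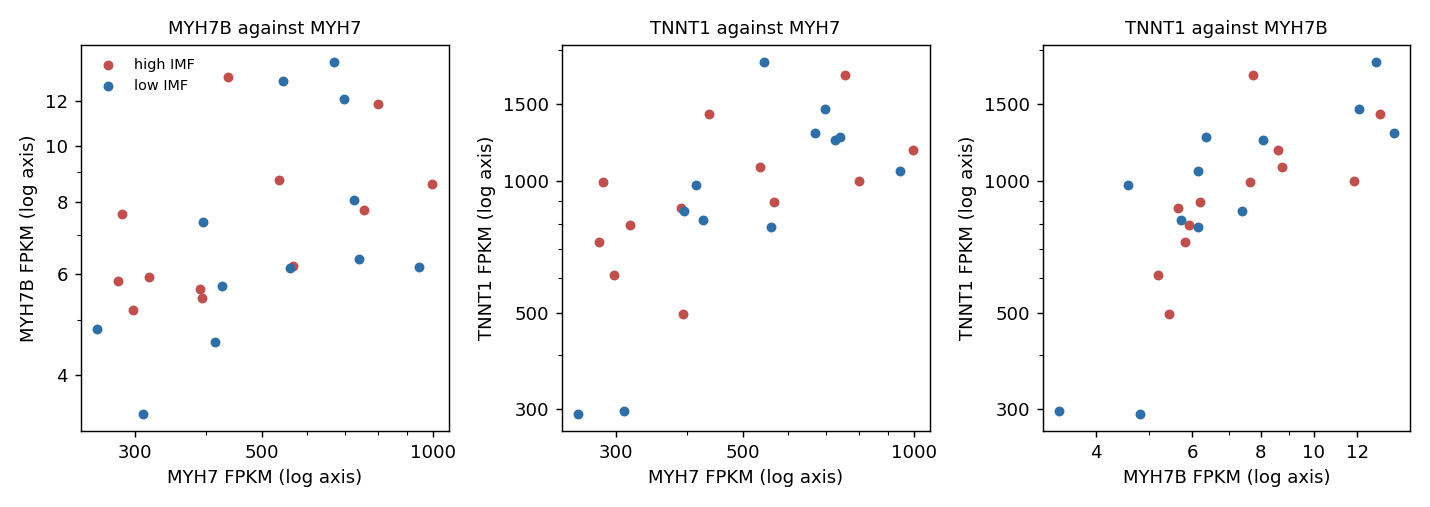
FPKM on log axes in 24 animals, red for high and blue for low IMF: MYH7B against MYH7, TNNT1 against MYH7 and TNNT1 against MYH7B. Points rise from lower left to upper right in all 3 panels (rho = 0.606, 0.709 and 0.844), with both colours along the whole course.

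For the fast and developmental symbols the nearest genes were of mixed kinds. MYH2 was most like ENHO (rho = 0.619), ALDOA, the aldolase of muscle glycolysis (rho = 0.597), and NDUFS4 of respiratory complex I (rho = 0.590), and least like EPHX2 (rho = -0.744). MYH4 was most like NDUFB2 (rho = 0.670), PRRC2A (rho = 0.648) and USH1C (rho = 0.637), and least like EIF3L (rho = -0.663). MYH1 was most like DMAC2 (rho = 0.676), GNL2 (rho = 0.617) and GAR1 (rho = 0.592), and least like RUVBL2 (rho = -0.683). No fast troponin, light chain or calcium pump was among the 3 nearest of MYH1, MYH2 or MYH4.

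MYH3 was most like MBNL2, a splicing regulator (rho = 0.727), SYNE2 (rho = 0.718) and DIDO1 (rho = 0.697), and least like PUM2 (rho = -0.759). MYH8 was most like TCTN1 (rho = 0.724), LENG1 (rho = 0.634) and the small nuclear RNA U6 (rho = 0.631), and least like PPP1R3D (rho = -0.685). MYH14 was most like CRLS1, the cardiolipin synthase (rho = 0.709), ALKBH8 (rho = 0.699) and SLC16A3, a lactate transporter (rho = 0.694). The coverage of the whole chromosome 12 cluster had a median rho of 0.024 with the 12 fast fibre partners (7 positive), the highest being TNNI2, fast troponin I, at 0.651. With the 13 slow fibre partners the median was 0.118 (9 positive), and over all symbols it was -0.028.

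The genes that work with the heavy chains did not pass between the groups either. Of 13 slow fibre partners limma called 0, against 0.0510% of all genes, and 0 had an unadjusted p under 0.05, against 7.68%. Of the 13, 7 were positive and 6 negative, beside 8627 positive of 11757 genes. Their median log2 difference was 0.051, beside 0.077 for all genes. The most abundant were MYL2 (0.087), TNNT1 (0.051) and TNNC1, the slow troponin C (0.10). Of 12 fast fibre partners 0 were called, against 0.0510% of all genes. An unadjusted p under 0.05 was found for 1, MYLPF, which was lower, against 7.68% of all genes in either direction and 0.893% lower. Of the 12, 4 were positive and 8 negative, with a median of -0.12. The most abundant were TPM1, a tropomyosin (-0.12), TNNC2, the fast troponin C (-0.15), and MYLPF, the fast regulatory light chain (-0.46, limma adjusted p = 0.521). After TMM scaling the slow list was positive for 4 of 13 and the fast list for 3 of 12.

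Of 34 regulators of fibre type 0 were called, against 0.0510% of all genes. An unadjusted p under 0.05 was found for 4, 1 higher and 3 lower. Among all 11757 genes it was found for 7.68%, 798 higher and 105 lower (0.893%). With 18 positive and 16 negative the median of the 34 was 0.0060, beside 8627 positive of 11757 genes and a median of 0.077. After TMM scaling 13 of the 34 were positive. Among the most abundant were VGLL2 (0.0072) and NR4A1 (-0.62). Of 16 genes of myosin folding and the thick filament 0 were called, against 0.0510% of all genes. An unadjusted p under 0.05 was found for 4, 2 higher and 2 lower, against 7.68% of all genes in either direction and 0.893% lower. Of the 16, 9 were positive, with a median of 0.021. The most abundant were the chaperone HSP90AA1 (-0.13), MYOM1 of the M-band (-1.36, limma adjusted p = 0.358) and the ubiquitin ligase TRIM63 (0.49). For MYH14, neither the non-muscle heavy chain MYH9 (0.22) nor any of 6 non-muscle light chains and kinases was called, against 0.0510% of all genes. MYH13, an extraocular chain in other mammals, had a log2 difference of -0.53 (limma adjusted p = 0.751), and all of its FPKM came from 3 opposite-strand transcripts of the cluster. MYH6, MYH10, MYH11, MYH15 and MYH16 are not listed as symbols and so have no values here. Whether LOC100736765, the neighbour of MYH7, is the pig MYH6 was not tested.

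The libraries and the tissue were checked as follows. Summed FPKM ran from 351119 to 415572 per library, and sequencing depth cannot be read from such values. The 10 most abundant genes took 18.5% and 20.2% of it in low IMF animal 10 and high IMF animal 7, against 24.7% to 33.0% in the others. Animal identifiers share their leading 4 digits in 2 sets of 12 animals, a lower-numbered and a higher-numbered one, with 6 of each group in both. For the difference between the sets themselves, limma called 0 of the 8 members and 0% of all genes, and had an unadjusted p under 0.05 for 0 of the 8 and 6.48% of genes. With the set as a term the IMF difference of MYH14 stayed at -0.74 (limma adjusted p = 0.419). For the difference of the IMF effect between the sets that unadjusted p took 1 of the 8, MYH7 (adjusted p = 0.998), against 3.29% of genes. Of 12 adipocyte markers 11 had a positive difference and 2, LEP and TUSC5, were called higher with high IMF. Of all genes 0.0510% were called in either direction. Of 8 endothelial, 8 smooth muscle, 6 macrophage and 3 blood markers 0 were called. Of 5 Schwann cell and nerve markers tested 0 were positive, with a median of -0.41. Among these 1 was called lower with high IMF (limma adjusted p = 0.0414), against 0.00851% of all genes. Of 8 cardiac markers 7 are not listed, and the summed adipocyte level was 158 to 323 FPKM with high and 105 to 238 with low IMF. Whether the difference in fat cells or in nerve markers bears on any value above was not tested.

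Within the sets, values for the members moved in places. MYH14 differed by -0.54 (lower-numbered set, exact permutation p = 0.167) and by -0.94 (higher-numbered set, exact permutation p = 0.0216), with 6 animals against 6 in each. MYH7 differed by -0.63 in the lower-numbered set (exact permutation p = 0.119) and by 0.28 in the higher-numbered set (exact permutation p = 0.353), opposite in sign. The correlation of MYH7 and MYH7B was r = 0.417 and rho = 0.510 in the lower-numbered set and r = 0.687 and rho = 0.741 in the higher-numbered set. That of MYH2 and MYH4 was r = 0.794 and rho = 0.790 in the lower-numbered set and r = 0.303 and rho = 0.510 in the higher-numbered set.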

How the data were processed

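Levels of the 8 myosin heavy chains were taken from 1 table of 24 animals that the authors deposited, with 1 value per assembled transcript and library. The unit, FPKM, was inferred from the deposited values and the columns beside them. Per the submitters' processing notes, HISAT2 2.0.5, StringTie 1.3.3 and the build Sscrofa11.1 were used, and the authors' fold ratio, p-value and q-values come from the same deposited table. Every transcript kept in it is above 0 in at least 19 libraries. Transcripts were summed per symbol and chromosome. limma 3.58.1 (R 4.3.3, trend and robust) was fitted on log2(FPKM + 1) over the 11757 genes whose mean reached 0.5 FPKM, with Benjamini-Hochberg adjustment at 0.05. The script was tested on simulated data. Shares were compared by two-sided permutation with 100000 resamples, and exactly within identifier sets. RefSeq ranges are those of Sscrofa11.1. TMM factors were computed by a hand-written, unweighted version. No count test was made because depth is unknown.

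Named genes are the members, the 3 most abundant and any called gene of each partner list, and for each member the 3 symbols of highest and the 1 of lowest rank correlation. Members and lists were chosen with earlier results of these data known. Some genes that this rule or the marker lists take are not reported here. Alternatives comprised scaling, pseudocount, filters, weights, identifier terms, transcript choice and leaving out each animal. The FPKM levels used to count animals were chosen after the values were seen.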

Additional observations from a re-analysis of the deposited data

Results flagged for a closer look

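The share of the MYH7 locus in the sum of the MYH7 locus and the chromosome 12 cluster moved in opposite directions in the 2 sets of animal identifiers. In the lower-numbered set it averaged 11.5% with high and 23.6% with low IMF, a difference of -12.0 percentage points (exact permutation p = 0.0108, 6 animals against 6). In the higher-numbered set it averaged 21.9% and 16.1%, a difference of 5.85 points (exact permutation p = 0.346). The differences of the sets stood 17.9 points apart, with an exact permutation p = 0.0107 from exchanging set labels within each IMF group, and 0.0535 after Benjamini-Hochberg adjustment over the 5 shares compared in this way. Leaving out each animal in turn gave 13.8 to 20.6 points (exact permutation p from 0.00224 to 0.0248), and FPKM without the factor of length gave 26.2 points (exact permutation p = 0.00309). Adjusted over 5 in the same way, these come to at most 0.0112 to 0.124 without single animals and 0.0154 without the length factor, so the side of 0.05 on which the adjusted value falls depends on these choices. What the first digits of the identifiers stand for is not known here. For the symbol MYH7 the same contrast in limma was 0.91 on the log2 scale (unadjusted p = 0.0495, adjusted p = 0.998), beside 3.29% of all genes at an unadjusted p under 0.05.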

How the results depend on the processing

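Under all 39 alternatives, 24 of them leaving out 1 animal each, limma called 0 of the 8 members, and no alternative moved a member, a member transcript or the share of a symbol across its threshold. No paired analysis was possible because replicate numbers were given in accession order and pair no animals. Of 548 recomputed values 498 kept direction and side and 50 changed sign. For the shares and for the set contrast of the MYH7 locus, the side was that of the unadjusted permutation p. The adjusted value of that contrast fell on either side of 0.05, as given above. MYH4 (0.025) became -0.087 with TMM, -0.095 with upper-quartile scaling, -0.036 with array weights, -0.22 with 1 animal per 9 identifier digits, -0.13 with a Y-linked term and -0.34 with reference or same-strand transcripts alone. MYH7B became -0.049 (TMM), -0.056 (upper quartile) and -0.013 without the 2 libraries that stood apart, MYH3 -0.063 (TMM), -0.068 (upper quartile) and -0.012 (pseudocount 0.1), and MYH7 0.015 with 1 animal per 9 digits. Within single RefSeq ranges, MYH1 was 0.39 and MYH7 0.15. Leaving out single animals gave MYH4 -0.19 to 0.21, MYH7B -0.027 to 0.13, MYH3 -0.093 to 0.11 and MYH8 -0.030 to 0.34. MYH14 kept its sign when single animals were left out, at -0.81 to -0.60 (limma adjusted p from 0.205 to 0.588). With TMM it was -0.81 (limma adjusted p = 0.384). The share of MYH2 turned to -0.124 points with FPKM times length and -0.784 with reference transcripts. That of MYH4 turned to -0.240, -0.852, -1.53 with 1 animal per 9 digits and -1.07 by medians, and without single animals ran from -0.839 to 2.02, that of MYH7 from -0.0561 to 3.73. The correlation of MYH7 and MYH1 became 0.144 and that of MYH1 and MYH4 0.00446 with TMM, and that of MYH1 and MYH2 -0.117 without the 2 farthest animals. The cause was not tested. MYH1 has no value with reference or same-strand transcripts alone, and MYH3 and MYH14 fell below the filter of 5 FPKM. The choices of strand, of RefSeq ranges, of the 2 libraries and of the locus share were made after seeing the data. Unknown depth and the spread between animals limit all members, most of all MYH1, MYH4 and MYH8.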
